A study of Mus musculus with 23 samples.

Results

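The regions described here are NR5A2-bound sites beside genes of the mitotic machinery: the kinases, cyclins, checkpoint proteins, kinetochore and condensin subunits, spindle motors and centriole proteins that carry a cell through division. They were chosen by position relative to a list of genes, and that list was drawn up with earlier results of these data known. A region belongs here when the protein-coding gene span (RefSeq, GRCm38.p6, the assembly of mm10) nearest to its midpoint is 1 of 57 named genes and lies within 50 kb. By this rule 70 of the 16958 regions in the deposited table belong, near 36 of the 57 genes. Of the 70, 2 lay inside a named gene and another gene at once, Kif20a with Cdc23 and Ckap5 with F2, and were kept. All coordinates are mm10.

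NR5A2 is an orphan nuclear receptor expressed in the early embryo that binds DNA as a monomer, at a single nuclear receptor site extended at its 5′ end. Entry into mitosis is driven by the kinase Cdk1 with a cyclin partner, Aurora and Polo kinases build the spindle, and the spindle checkpoint holds back the protease separase until every kinetochore is attached. Cleavage-stage embryos divide without growth between divisions and depend at first on maternal stores of these proteins. In ATAC-seq, the assay used, a transposase inserts adapters into open DNA, so the number of reads over a site measures how accessible it is.

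All embryos were collected or processed at the 8-cell stage. In the maternal-zygotic (mz) series, 8 heterozygous embryos (mz_NrHet) and 13 knockout embryos (mz_NrKO) of one date were each made into a library directly, without culture. The labels do not say whether the heterozygotes had maternal Nr5a2, nor which Cre or promoter made the deletion. In the inducible series (iNrKO), embryos were taken as early 2-cell embryos 30 h after hCG and cultured for 45 h. Of its 2 embryo pools, 1 received 750 nM 4-hydroxytamoxifen over the first 24 h (NrKO) and 1 did not (Nrpp). Both pools share another date, so date, culture and series cannot be told apart, and no sample received the drug without the inducible deletion. The number of embryos in a pool is not given.

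RefSeq promoter windows (250 bases before a start site to 50 after it) were at hand for 46 of the 57 genes, and 2 genes, Kif23 and Sgo1, had a window overlapped by a bound region of their own. Their upstream bases are printed because both regions are among the 5 most open described here and neither window matches the motif searched. That motif was TCAAGGNCA or the shorter CAAGGNCA, and other forms were not searched. Both stretches run 5′ to 3′ towards the start site (RefSeq, GRCm38.p6, minus strand), with the bases inside the bound region in capitals. The Kif23 stretch is chr9:61946800-61947049 and the Sgo1 stretch chr17:53689316-53689565.
Kif23: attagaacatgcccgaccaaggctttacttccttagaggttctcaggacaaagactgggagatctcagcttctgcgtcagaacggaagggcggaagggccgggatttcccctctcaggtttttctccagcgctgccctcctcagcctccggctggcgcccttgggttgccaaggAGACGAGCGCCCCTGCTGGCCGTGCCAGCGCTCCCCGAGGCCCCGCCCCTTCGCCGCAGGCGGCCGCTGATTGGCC
Sgo1: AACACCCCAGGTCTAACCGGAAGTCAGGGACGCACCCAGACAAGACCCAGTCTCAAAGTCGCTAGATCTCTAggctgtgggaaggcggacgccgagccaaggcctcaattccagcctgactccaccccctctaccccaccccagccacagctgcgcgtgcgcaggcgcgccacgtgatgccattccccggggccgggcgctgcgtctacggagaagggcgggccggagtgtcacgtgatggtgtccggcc

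Neither window, which covers only part of its bound region, held TCAAGGNCA or the shorter CAAGGNCA on either strand. In both regions the authors had also left the CUT&RUN summit (the point of strongest NR5A2 binding, from an antibody-directed cleavage assay of an earlier study) where it was. In 60 of the 70 regions (85.7%) the summit had been moved onto an Nr5a2 motif, against 89.3% of all regions. What the moved summits mark was read from the 114 of them in the whole table that fell inside a RefSeq promoter window: 94 of the 114 (82.5%) had AAGG at 1 fixed offset from the summit on one strand or the other. Of 113 unmoved summits in such windows, 7 (6.19%) did. The most frequent words there, read on the strand of the AAGG, were these, with 13 and 12 occurrences.
word 1: TCAAGGCCA
word 2: TCAAGGTCA

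Both motifs were searched on both strands in all windows. None of the 49 windows of the 46 genes held TCAAGGNCA, against 1.62% of 32851 mouse windows. The shorter CAAGGNCA, which every match to the longer motif also contains, was in 1 of the 49, against 6.71% of all. That match lay 72 bases before the start of Birc5, which encodes survivin of the chromosomal passenger complex (GRCm38.p6, chr11:117849154-117849183, plus strand, match in capitals). No bound region of the table has Birc5 as its nearest gene. A match, or its absence, describes these letters only.
Birc5: cgccacgcccaCAAGGCCAggcgcagatgg

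The deposited values are RPKM (reads scaled to library size, here with no division by each region's own length). Each group has 1 merged value per region, so the spread between embryos is unknown and no difference below was compared with it. Every value was a whole multiple of 1 step per column, from which reads were recovered. Over all regions the 4 columns held from 99826 to 285671 reads, and over the 70 regions 364 reads in heterozygotes, 478 in mz knockouts, 1180 without and 744 with treatment. Median reads per region were 4, 5, 14.5 and 8 in that order. A value of 0 allows up to 3 reads, which are 1.76, 1.08, 0.490 and 0.510 RPKM in the same order. No region of the table lay inside Nr5a2 (0 of 16958), so the deletion itself could not be checked. Tests on reads compare merged libraries, not conditions. They and all intervals (exact, 95%) cover counting error only, and reads that are PCR copies are not independent.

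The authors class 32 of the 70 regions (45.7%) as accessible, against 48.5% of all regions. Of the 70, 39 (55.7%) lay inside the gene, against 56.0% of the 15423 regions of the table within 50 kb of a protein-coding gene. NR5A2 signal in CUT&RUN had a median of 4.51 RPKM, against 4.15 RPKM. In all, 2 of the 70 regions (2.86%), at Kif23 and Ccna2, had their midpoint within 1 kb of an end of the gene, against 7.17% of those 15423. The Sgo1 region is not counted there, as its midpoint lay 1.74 kb from the nearer end of the gene span. The Sgo1 start site printed above is inside that span. The rule itself used position relative to a gene. In the 32 accessible regions the ATAC-seq summit lay a median of 102.5 bp from the NR5A2 summit, against 108 bp in all 8228 accessible regions. These are descriptions, and none was tested against the rest of the table.

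The mz comparison asked how these sites differ in embryos without maternal and zygotic Nr5a2. Summed over the 70 regions, accessibility was 171.4 RPKM in knockouts and 213.8 RPKM in heterozygotes, a ratio of 0.802 (0.698 to 0.921), beside a ratio of 0.668 (0.663 to 0.674) over all regions. With the columns scaled so that all regions sum to a ratio of 1, the 70 regions lay on the other side of 1, at 1.20 (1.04 to 1.38). The difference between the 70 regions and the rest of the table was not tested. The 32 accessible regions had a ratio of 0.738 (0.630 to 0.864) and the 38 not accessible regions 1.07 (0.790 to 1.45), beside 0.650 and 0.734 over all regions of those classes. As log2 ratios with 1 RPKM added to each value, which shrinks differences at low levels, the median was −0.23, against −0.32 over all regions. Of the 70, 39 (55.7%) were lower in knockouts, 29 were higher and 2 were equal, where 64.3% of all regions were lower. Fewer cells and less signal per cell cannot be told apart in merged libraries.

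No region of the 70 passed in this series. By the exact binomial test on reads (two-sided, Benjamini-Hochberg adjustment over all 16958 regions at 0.05) 0 of 70 were lower, where 1.73% of all regions were, and 0 were higher, where 0.0236% were. At an unadjusted p under 0.05, 4 of the 70 (5.71%) were lower and 0 higher, where 11.9% and 0.708% of all regions were. Depth sets what could pass: even with every read in the heterozygote column, only 39 of the 70 regions held enough reads for a p as small as the largest that passed, 0.000869.

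The inducible comparison asked the same of embryos treated from the early 2-cell stage to delete Nr5a2. Here the 70 regions summed to 126.6 RPKM in the treated and 192.6 RPKM in the untreated pool, a ratio of 0.657 (0.599 to 0.721), beside 0.694 (0.690 to 0.698) over all regions. Scaled in the same way, the ratio was 0.948 (0.863 to 1.04). The accessible and not accessible regions had like ratios, 0.669 (0.598 to 0.747) and 0.632 (0.533 to 0.749). Of the 70, 56 (80.0%) were lower in the treated pool and 14 higher, where 74.4% of all regions were lower. The median log2 ratio was −0.40, against −0.35.

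By the same exact binomial test 4 of the 70 regions (5.71%) were lower, where 6.37% of all regions were, and 0 were higher, where 0.0767% were. They lie at Aurka, Sgo2a, Cenpe and Cdc25c. A share this near the background is not a result about these genes as a group. All 4 calls were lost after scaling that sets the median log2 ratio of all regions to 0 (adjusted p from 0.148 to 0.243, exact binomial test) and with the summed ratio of all regions scaled to 1 (0.227 to 0.414). The scaled ratios were 0.367 for Aurka, 0.358 for Sgo2a, 0.456 for Cenpe and 0.102 for Cdc25c after the first scaling. After the second they were from 0.116 to 0.515. These regions were picked for low inducible ratios, so scaled values below 1 are no further support.

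**Figure D1:**
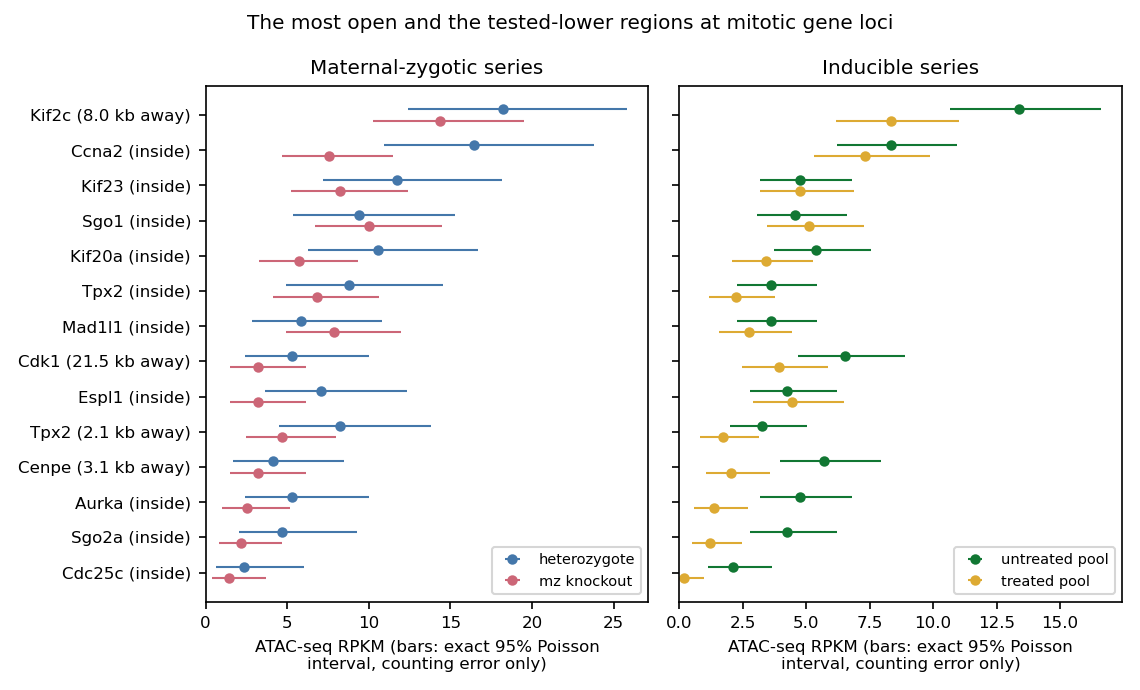
ATAC-seq RPKM of the 10 most open regions at the mitotic gene loci and of the 4 regions that passed the exact test in the inducible series (horizontal axes, linear, different ranges), with 1 point per merged library and exact 95% Poisson intervals as bars. Intervals overlap in all 14 rows of the mz panel, and in the inducible panel they part only at the tested-lower regions of Aurka, Sgo2a, Cenpe and Cdc25c.

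The Cdk1 engine comprises Cdk1, its cyclins, the Cdc25 phosphatases that switch the kinase on and Wee1, the kinase that holds it off. All 8 genes have a region, 16 in all, with a mz ratio of 0.691 (0.522 to 0.914) and an inducible ratio of 0.637 (0.528 to 0.767). These and the group ratios below are to be read against 0.668 and 0.694 for all regions. Of the 16, 1 passed, as lower in the treated pool, where 6.37% of all regions were. It lies inside Cdc25c (chromosome 18, 34748263 to 34748444), is classed as not accessible, and had 2.35 RPKM in heterozygotes, 1.43 in mz knockouts, 2.12 in the untreated and 0.170 in the treated pool. The treated value is 1 read against 13, which gives 0.0802 (0.00189 to 0.534; adjusted p = 0.0360, exact binomial test), while the mz columns held 4 reads each.

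Ccna2 encodes cyclin A2, which partners Cdk1 at mitotic entry. Its region (chromosome 3, 36572062 to 36572260, 0.877 kb inside a gene end) was the second most open of the 70, with 16.4 RPKM in heterozygotes, 7.53 in mz knockouts, 8.32 untreated and 7.32 treated. The heterozygote column was highest and the other 3 were close to each other. Over all regions too the heterozygote column had the highest mean, 3.46 RPKM, against 2.31 in mz knockouts, 2.75 untreated and 1.91 treated. The mz ratio of 0.458 (0.247 to 0.836) had an adjusted p of 0.152 (exact binomial test), and the inducible ratio of 0.879 (0.572 to 1.35) an adjusted p of 0.832. Whether the ratios of this region differ between the series had an unadjusted p of 0.0765 (exact conditional test), which did not pass after adjustment over all regions.

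Wee1 has regions 25.2 kb and 10.9 kb away. The farther had 2.35 RPKM in heterozygotes, 2.15 in mz knockouts, 3.75 untreated and 1.19 treated, and the nearer 4.70, 1.08, 2.45 and 0.851 RPKM. Both were below control in both series, the nearer at 0.229 times the heterozygote value (0.0391 to 0.954; adjusted p = 0.296, exact binomial test). Neither passed as a single region. Among accessible regions alone the farther one did, with an adjusted p of 0.0440 (exact binomial test). It was singled out after its values were seen.

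Cdc25a, the phosphatase of early cell cycles, has the most regions, 5, from 15.3 kb away to inside the gene. Its most open region, 9.44 kb from the 5′ end, had 4.11 RPKM in heterozygotes and 5.74 in mz knockouts, 3.92 untreated and 3.40 treated. The next, 6.66 kb beyond the 3′ end, had 8.22 and 3.59, then 2.61 and 1.70 RPKM. The mz ratios of these 2 regions, on opposite sides of the gene, 1.40 (0.543 to 4.01) and 0.436 (0.173 to 1.06), lie on opposite sides of 1 with intervals that overlap. Cdk1 has 4 regions. The most open lay 21.5 kb from its 5′ end, with 5.29, 3.23, 6.53 and 3.91 RPKM in the order used above. Of the B-type cyclins, Ccnb1 had 1 region with 0 RPKM in heterozygotes, 2.15 in mz knockouts, 1.96 untreated and 1.36 treated, and the Ccnb2 region had 0, 0.359, 1.14 and 0 RPKM. Both had 0 reads in heterozygotes, where their ratio has no estimate. Cdc25b, with 1 region inside the gene, had 2.35, 2.15, 3.43 and 2.55 RPKM.

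Aurora kinases and the passenger complex, which corrects wrong attachments at the centromere, were represented by 6 regions at 4 of 8 genes. Their ratios were 0.904 (0.541 to 1.53) and 0.808 (0.582 to 1.12). The region that passed lies inside Aurka, the Aurora kinase of spindle poles (chromosome 2, 172369438 to 172369613, 1.36 kb inside the 5′ end). It had the strongest NR5A2 signal of the 70, 14.6 RPKM, at percentile 98.5 of all regions. Its accessibility was 5.29 RPKM in heterozygotes, 2.51 in mz knockouts, 4.73 untreated and 1.36 treated. Each knockout column was below its control. The inducible ratio was 0.288 (0.114 to 0.645; adjusted p = 0.0227, exact binomial test) and the mz ratio 0.475 (0.150 to 1.43; adjusted p = 0.662).

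A second Aurka region, 4.69 kb inside the other end and not accessible, had 1.17 and 2.51 RPKM in the mz columns and 0.979 and 1.19 in the pools, higher in both knockouts without passing. The accessible region 6.53 kb from Incenp, the scaffold of the passenger complex, had 2.35 and 3.59, then 3.92 and 4.25 RPKM, above the control in both series. It is among the 5 most strongly bound regions of the 70, at 10.3 CUT&RUN RPKM, and the interval of its inducible ratio, 1.09 (0.595 to 1.99), includes both 1 and 0.694. Near Aurkb, the passenger kinase itself, a region 3.60 kb away had 0.587 and 2.51, then 1.96 and 2.04 RPKM, and one inside the gene 1.76 and 0.359, then 1.63 and 1.87 RPKM. Aurkc, the meiotic relative that oocytes and early embryos carry, had 1 region 38.5 kb away with 4.70, 2.87, 1.31 and 1.02 RPKM.

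Checkpoint, cohesion and anaphase genes had 16 regions at 9 of 13 genes, with ratios of 0.902 (0.655 to 1.25) and 0.727 (0.596 to 0.885). The shugoshins, which protect centromeric cohesion, had different values. At Sgo2a, the region inside the gene (chromosome 1, 58006442 to 58006615) had 4.70 RPKM in heterozygotes, 2.15 in mz knockouts, 4.24 untreated and 1.19 treated. Its inducible ratio was 0.281 (0.103 to 0.664; adjusted p = 0.0305, exact binomial test). A second Sgo2a region, 5.96 kb away, had 2.94, 1.43, 2.94 and 1.02 RPKM, so both regions were below control in both series.

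At Sgo1 the region (chromosome 17, 53689494 to 53689679, 271 bp from the start site printed above) had 9.40 RPKM in heterozygotes, 10.0 in mz knockouts, 4.57 untreated and 5.10 treated. It was one of 7 regions of the 70 above its control in both series. Its ratios were 1.07 (0.558 to 2.11) and 1.12 (0.645 to 1.94), and the inducible interval of Sgo1 overlaps that of Sgo2a only between 0.645 and 0.664. The difference between the 2 genes was not tested.

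Mad1l1 and Mad2l1 encode partners in the checkpoint signal. The open Mad1l1 region, 149 kb from the nearer end of this long gene, had 5.87 and 7.89, then 3.59 and 2.72 RPKM. Mad2l1 regions 18.5 and 25.8 kb away had 0 RPKM each in heterozygotes and 0.359 and 1.08 in mz knockouts, and 2.45 and 1.31 untreated against 0.681 and 0.170 treated. Neither of the 2 regions passed alone. Espl1, the gene of separase, has a strongly bound region inside it (10.4 CUT&RUN RPKM) with 7.05 and 3.23, then 4.24 and 4.42 RPKM. A weaker Espl1 region 5.03 kb away had 0.587 and 2.15, then 2.77 and 1.87 RPKM, the opposite order in each series, also without passing.

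Pttg1, the gene of securin, which inhibits separase, had 1 open region with 2.94 and 1.43, then 4.08 and 2.55 RPKM. Cdc20, the activator that starts anaphase, had a pair of regions 301 bp apart, with 0.587 and 1.43, then 3.59 and 2.72 RPKM at the more open one. Zwilch, of the complex that brings dynein to kinetochores, had an open region with 4 reads (2.35 RPKM) in heterozygotes and 0 in mz knockouts, an upper limit of 0.925 for the ratio. Its other region had 0.587 and 1.79, then 2.29 and 2.72 RPKM, higher in both knockouts. The Bub1b region had at most 8 reads in any column, with 1.31 RPKM untreated and 0.851 treated.

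Kinetochore and centromere genes had 12 regions at 5 of 9 genes, with ratios of 0.814 (0.527 to 1.27) and 0.601 (0.459 to 0.785). Cenpe, the kinesin that carries chromosomes to the spindle equator, has a region 3.10 kb from its 5′ end (chromosome 3, 135209103 to 135209831). It had 4.11 RPKM in heterozygotes, 3.23 in mz knockouts, 5.71 untreated and 2.04 treated. The treated pool stood lowest, at 0.357 times the untreated (0.169 to 0.705; adjusted p = 0.0280, exact binomial test), while the mz ratio was 0.785 (0.260 to 2.48; adjusted p = 1). Ndc80, the gene of the microtubule-binding subunit, has a region 6.12 kb past its 3′ end with 5.29 and 1.08, then 2.94 and 0.681 RPKM. Its mean log2 ratio over both series, −1.41, was the lowest of the regions with at least 20 reads. Its ratios were 0.204 (0.0354 to 0.815) and 0.232 (0.0570 to 0.703), with adjusted p of 0.202 and 0.0600 (exact binomial test). The second p became 0.0384 when accessible regions alone were tested. This region was picked for its low ratios, so these values are no separate support. Accessible regions also passed more often. With adjustment over all regions, 852 of 8228 were lower in the treated pool and 3 of the 32 described here, against 6.37% of all regions. With adjustment within accessible regions, 5 of the 32 were lower. The share of all 8228 under that adjustment is not given here, so these 5 calls have no matching background.

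For the other kinetochore genes the most open region of each is given first. Knl1, which docks the checkpoint proteins, had an open region with 1.76 and 2.87, then 2.77 and 2.72 RPKM. Cenpa, the centromeric histone, had 4.11 and 5.02, then 3.92 and 2.72 RPKM at its open region 4.26 kb past the 3′ end. Cenpc1 had 2.35 and 2.87, then 2.45 and 2.21 RPKM at the more open of 2 regions, which is classed as not accessible. In the mz series these 3 regions were above the heterozygotes, with intervals that include 1. Weaker regions of Knl1 and Cenpa, classed as not accessible, were below control in both series without passing. Knl1 had 1 with 2.35 and 0.717, then 1.63 and 0.510 RPKM, and another with at most 2 reads in any column. Cenpa had 1 with 1.17 and 0.717, then 1.96 and 0.851 RPKM. The other Cenpc1 region had 0 and 1.08, then 0.326 and 0.851 RPKM, above control in both.

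Spindle motors and microtubule proteins had 15 regions at 7 of 8 genes, 5 of them among the 10 most open of the 70. None of the 15 passed in either series, where 1.73% and 6.37% of all regions were lower. At 15 regions this is near the background. Ratios were 0.791 (0.620 to 1.01) and 0.636 (0.531 to 0.759). In the treated pool 14 of the 15 were lower, where 74.4% of all regions were. The most open of all 70 lies 7.96 kb from the 5′ end of Kif2c, a microtubule depolymerase of centromeres (chromosome 4, 117190500 to 117190661), with only 2.57 CUT&RUN RPKM. Its accessibility was 18.2 RPKM in heterozygotes, 14.3 in mz knockouts, 13.4 untreated and 8.34 treated. Both knockout columns were lower, with ratios of 0.788 (0.481 to 1.30; adjusted p = 0.843) and 0.623 (0.428 to 0.898; adjusted p = 0.0881, exact binomial test).

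Over the start site of Kif23, the kinesin of the central spindle (chromosome 9, 61946701 to 61946875), accessibility was 11.7 and 8.25, then 4.73 and 4.76 RPKM, with an inducible ratio of 1.01 (0.577 to 1.75). A second Kif23 region, not accessible, 11 kb inside the gene and with a moved summit, had 2.61 RPKM untreated and 1.02 treated. Kif11, the motor that pushes spindle poles apart, had 2 open regions inside the gene with 2.35 and 5.38, and 1.17 and 3.59 RPKM, in the mz columns. In the pools they had 5.22 and 3.57, and 5.22 and 3.23 RPKM. Both were thus above control in the mz and below it in the inducible series, and neither difference passed. At Tpx2, the activator of Aurora A on the spindle, the region inside the gene had 8.81 and 6.81, then 3.59 and 2.21 RPKM, and the one 2.11 kb away 8.22 and 4.66, then 3.26 and 1.70 RPKM.

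The region shared by Kif20a, a kinesin of cytokinesis, and Cdc23, a subunit of the anaphase-promoting complex, had 10.6 and 5.74, then 5.39 and 3.40 RPKM. Ckap5, a microtubule polymerase, had 4 regions, of which the open one had 2.35 and 1.43, then 3.59 and 2.89 RPKM. Kif18a, which dampens chromosome oscillation, had 1.76 and 0.359, then 1.63 and 1.02 RPKM. With their regions summed, the loci Tpx2, Kif20a, Ckap5 and Kif18a were below control in both series, without passing. In the same group the Kif2c and Kif23 loci were also below control in both, and the Kif11 locus was above it in the mz series. Of all single regions 50.5% were below control in both series, and the share of all loci is not given here.

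Condensin and topoisomerase genes, which compact and untangle chromosomes, had 5 weak regions at 3 of 6 genes. Smc4 had the only accessible one, with 3.52 and 2.15, then 3.10 and 1.36 RPKM. Top2a and Smc2 had at most 12 reads in any column of any region. The ratios over all 5 regions were 1.04 (0.449 to 2.54) and 0.463 (0.259 to 0.801), too imprecise in the mz series to place against the table. Of the 5 centriole and centrosome genes, Plk4, Cenpj, Cep152, Cep192 and Sass6, none had a region.

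**Figure D2:**
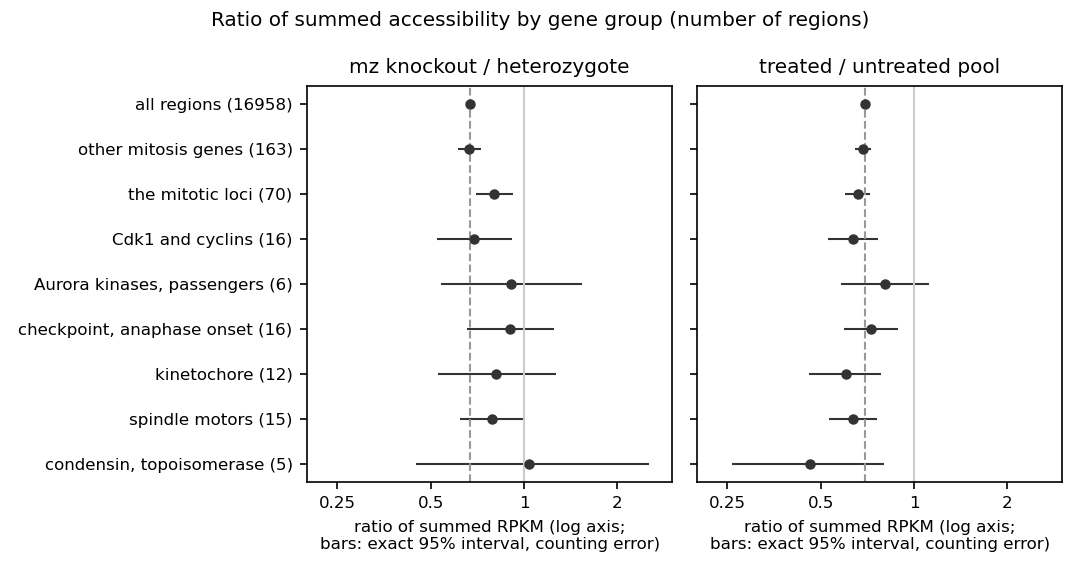
Ratio of summed RPKM (log axis) for each functional group in the mz series (left) and the inducible series (right), with exact 95% intervals for counting error as bars, the number of regions in brackets, a dashed line at the ratio of all 16958 regions and a solid line at 1. The 70 mitotic regions lie at 0.802 (0.698 to 0.921) and 0.657 (0.599 to 0.721). Their interval lies above the dashed line in the mz panel, a difference that was not tested, and includes it in the inducible panel. The interval of each of the 6 functional groups includes the dashed line in both panels.

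For the 21 genes without a region, the nearest region was over 50 kb away in 9 cases (among them Bub1, Ttk, Cenpf and Nuf2) and within 50 kb but nearer to another gene in 12. The closest of these lay 1.05 kb from Plk1, the main Polo kinase, and was counted to its neighbour Ern2. It had 2.35 RPKM in heterozygotes, 1.43 in mz knockouts, 2.77 untreated and 2.55 treated. The closest to Plk2, another Polo kinase, lay 21.9 kb away, with 16.4 CUT&RUN RPKM and 2.35, 2.15, 2.77 and 5.28 RPKM in the ATAC-seq columns. It was highest in the treated pool.

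Reads were next summed over all regions of a nearest gene, which gives more reads per test, and the exact binomial test was run on all 8151 such loci. In the mz series 0 of the 36 mitotic loci were lower, where 5.5% of all loci were, and 0 were higher, where 0.0736% were. At an unadjusted p under 0.05, 2 of the 36 were lower and 1 was higher, where 1468 and 65 of the 8151 loci were. In the inducible series 6 of 36 (16.7%) were lower, where 15.2% of all loci were, and 0 were higher, where 0.11% were. This share of 16.7% too is near the background. With an unadjusted p under 0.05 (exact binomial test), 14 of the 36 were lower in the treated pool and 0 higher. Of all loci 28.4% and 0.748% were, and the difference between the 36 and the rest was not tested.

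The 6 loci were Sgo2a, Wee1, Mad2l1, Cdc25c, Cenpe and Kif2c. Sgo2a summed to 7.18 RPKM untreated and 2.21 treated (ratio 0.308, 0.152 to 0.582; adjusted p = 0.00224, exact binomial test), and to 7.64 in heterozygotes and 3.59 in mz knockouts. Wee1 had 38 reads untreated and 12 treated (0.329, 0.157 to 0.644; adjusted p = 0.00595) and 7.05 and 3.23 RPKM in the mz columns. Mad2l1 had 3.75 and 0.851 RPKM in the pools (0.227, 0.0673 to 0.610; adjusted p = 0.0121) and 0 and 1.43 in the mz columns, where 0 reads allow up to 1.76 RPKM. Wee1, Mad2l1 and Kif2c passed only once their regions were summed, while Aurka, with 1 region that passed, did not as a locus (adjusted p = 0.0602). Kif2c, with the most reads, had the mildest of the 6 ratios, 0.626 (0.438 to 0.886; adjusted p = 0.0420, exact binomial test). After scaling to the median, and also to the summed ratio of all regions, 0 of the 36 loci passed.

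At the other end, Sgo1, Cenpc1, Aurkb, Incenp and Mad1l1 had inducible ratios from 1.01 to 1.12, each with an interval that includes both 1 and 0.694. Cdc25a (5 regions) and Cdk1 (4) each had 82 reads untreated and 54 treated, a ratio of 0.687 (0.478 to 0.980), and mz ratios of 0.748 (0.453 to 1.24) and 0.824 (0.445 to 1.55). Ckap5 (4 regions) had 7.34 RPKM untreated and 4.25 treated, a ratio of 0.579 (0.340 to 0.965), and a mz ratio of 0.698 (0.221 to 2.26), and none of these 3 loci passed. Kif11 (3 regions) had a mz interval above 1, with 4.11 RPKM in heterozygotes and 10.0 in knockouts, 2.44 times as much (1.04 to 6.62; adjusted p = 0.216, exact binomial test), which did not pass.

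**Figure D3:**
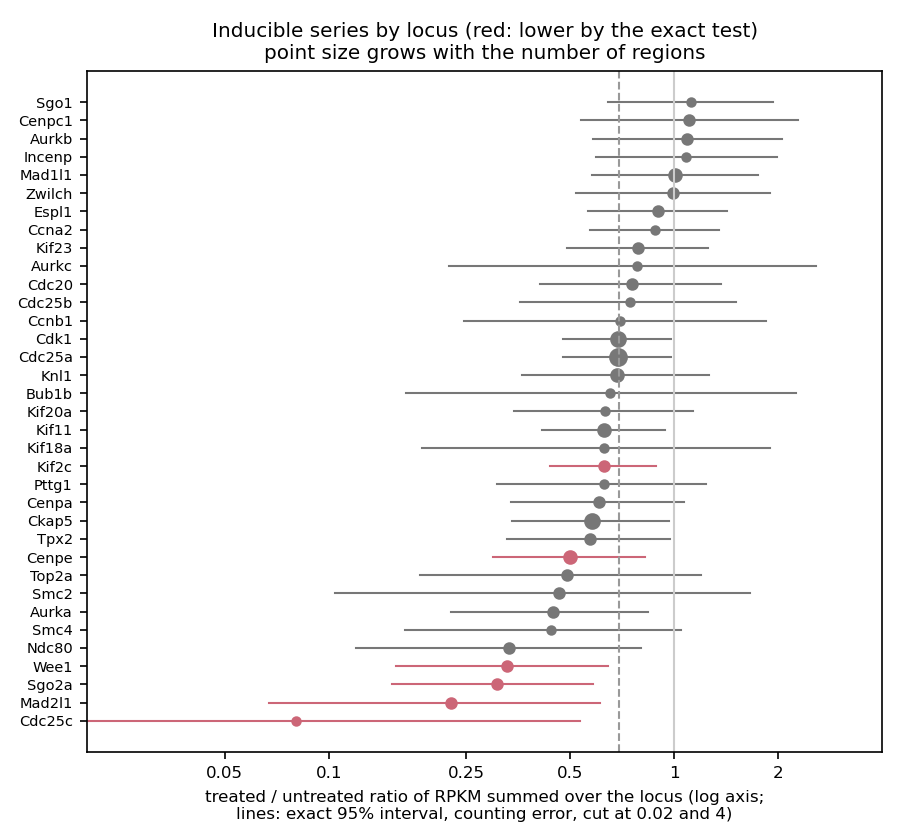
Ratio of treated to untreated RPKM summed over the regions of each mitotic locus (log axis), with exact 95% intervals as lines, point size by number of regions, a dashed line at the ratio of all regions, 0.694, and a solid line at 1. The 6 loci in red passed the exact test over all 8151 loci; Ccnb2, with 7 reads untreated and 0 treated, has no point.

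Whether a region responded differently in the 2 series was tested by an exact conditional test on its 4 read counts, adjusted over all regions. None of the 70 passed, where 0.0177% of all regions did, and 2 of the 70 (2.86%), at Cdk1 and Mad2l1, had an unadjusted p under 0.05, where 4.41% of all regions did. Of the 70 regions, 32 (45.7%) were lower in both knockouts and 7 were higher in both, where 50.5% and 9.98% of all regions were. Over the 70 regions the log2 ratios of the 2 series had a Pearson correlation of 0.16, against 0.22 over all regions, which at so few reads per region is a description only. The series share no column.

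**Figure D4:**
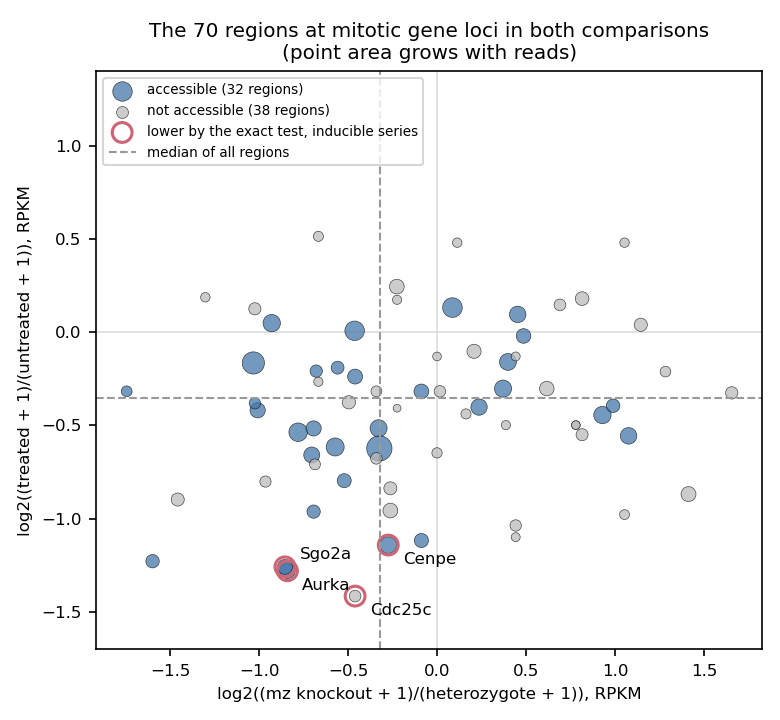
Log2 ratio in the mz series (horizontal) and in the inducible series (vertical) of the 70 regions at mitotic gene loci, on the log2(RPKM + 1) scale, with point area growing with reads, blue for the 32 accessible and grey for the 38 not accessible regions, and dashed lines at the medians of all regions, −0.32 and −0.35. Red rings mark the 4 regions that passed the exact test in the inducible series, which by itself places them low on the vertical axis. On the horizontal axis all 4 lie below 0, where 64.3% of all regions were lower in mz knockouts.

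Binding strength and the motif class were looked at within the 70. The 39 regions with CUT&RUN signal above the median of all regions had ratios of 0.780 (0.650 to 0.939) and 0.632 (0.560 to 0.713), and the 31 others 0.831 (0.671 to 1.03) and 0.696 (0.601 to 0.805). Intervals of the 2 classes overlap in both series. The 60 regions with a moved summit had ratios of 0.865 (0.734 to 1.02) and 0.623 (0.560 to 0.692), and the 10 with an unmoved summit 0.660 (0.506 to 0.861) and 0.795 (0.651 to 0.969). The order of the 2 classes was thus opposite in the 2 series. Of the 10, 9 are accessible, and the regions at Ccna2, Kif23 and Sgo1 are among them. Over all regions, moved summits had the lower ratio in both series, 0.658 against 0.723 and 0.679 against 0.790.

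In the authors' deposited classes of change, which follow the mean of their 2 ratios, 26 of the 70 regions (37.1%) are called down, 26 unchanged and 18 (25.7%) up, against 41.5%, 41.6% and 16.9% of all regions. None of the 18 regions classed up passed the exact test in either series. All 18 had at most 2 reads in heterozygotes: 9 had 0 reads, 7 had 1 and 2 had 2. Of the 18, a Kif11 and an Espl1 region are accessible and the other 16 are not.

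A list of 148 other mitosis genes, drawn up by function (further centromere proteins, cohesin, the anaphase-promoting complex, kinesins, the γ-tubulin complexes and others), had 163 regions at 89 genes. Their mz ratio was 0.666 (0.612 to 0.724) and their inducible ratio 0.685 (0.647 to 0.726), beside 0.668 and 0.694 for all regions. By the exact binomial test 5 of the 163 were lower in mz knockouts and 11 in the treated pool, where 1.73% and 6.37% of all regions were, and 0 were higher in either. Of the 163, the regions that passed in at least 1 series lay at Racgap1, Anapc10, Anapc1, Tacc1, Trip13, Ncaph2, Kntc1, Nek6, Pds5b, Nipbl and Fbxo5. As loci, 5 of 89 were lower in the mz and 11 of 89 in the inducible series, where 5.5% and 15.2% of all loci were. Housekeeping genes had 20 regions with ratios of 0.763 (0.613 to 0.951) and 0.775 (0.665 to 0.904), and 0 passed. Markers of granulosa and cumulus cells, which surround the oocyte, had 6 regions at 6 of 16 genes, 1 of them accessible, with 7, 14, 39 and 27 reads in the 4 columns and 0 that passed. Their summed level was from 4.11 to 6.37 RPKM over the columns.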

How the data were processed

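ATAC-seq was run on 8-cell mouse embryos in 23 libraries. Per the submitters' processing notes, cutadapt, Bowtie2, MACS2 and mm10 were used, in versions and settings not given in the sources used here. The deposited table holds 1 merged RPKM per group and region. CUT&RUN RPKM come from an earlier study, per the file headers. The authors' deposited ratios add 0.01 to each column, and their classes of change follow the mean of these ratios. Summits are the authors' positions.

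All deposited RPKM were whole multiples of 1 step per column (100% within 0.001 of the step), 0.587, 0.359, 0.163 and 0.170 RPKM per read for heterozygotes, mz knockouts, untreated and treated pool. The recovered reads were tested per region and per locus (reads summed over regions of the nearest gene within 50 kb) by a two-sided exact binomial test against the ratio of steps, with Benjamini-Hochberg adjustment at 0.05. Differences between the series used an exact conditional test. Log2 ratios have 1 RPKM added. Intervals of ratios are Clopper-Pearson, those of single RPKM Poisson. Tests were run on simulated independent Poisson counts, the model they assume. That check cannot show how they behave with PCR copies or spread between embryos. Tools were Python 3.11.15, scipy 1.17.1, numpy 2.4.6, pandas 2.3.3 and matplotlib 3.10.9.

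The genes, lists and tests were chosen with earlier results of these data known. Regions were named when they passed a test, were among the 10 most open or the 5 most strongly bound, had the 5 lowest or highest mean log2 ratios among those with at least 20 reads, had the highest untreated RPKM of their group, or were accessible within 1 kb of a gene end. Other regions were named to give each locus a value. Alternatives changed the scaling, a minimum of 10 reads, the distance (10 kb), accessible regions only, the adjustment, the added constant (0.1) and the members left out.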

Additional observations from a re-analysis of the deposited data

How the results depend on the processing

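The inducible counts of regions and loci that passed depended on the scaling. With columns scaled to a median log2 ratio of 0 over all regions, the 70 regions had a summed mz ratio of 1.00, a summed inducible ratio of 0.838 and an inducible median log2 ratio of −0.048, and 0 regions and 0 loci were lower in the treated pool. With the summed ratio of all regions scaled to 1, the summed mz and inducible ratios were 1.20 and 0.948. Again 0 regions and 0 loci were lower in the treated pool. The mz and inducible median log2 ratios were then 0.36 and 0.13. This scaling adds the same amount to every region of a series, so the sign of these medians is no difference from the table. Before it the medians were −0.23 and −0.40, against −0.32 and −0.35 over all regions. With the Benjamini-Yekutieli adjustment, which allows any dependence between regions, 0 regions and 1 locus were lower in the treated pool (exact binomial test, adjusted p from 0.234 to 0.372 for the 4 regions). Among accessible regions alone the mz median log2 ratio was −0.49, and it was also −0.49 over all accessible regions of the table. With 0.1 RPKM added in place of 1, which shrinks differences less, the inducible median was −0.57. The median over all regions with 0.1 RPKM added is not given here, so −0.57 cannot be set against the table. The cause of these shifts was not tested. With a minimum of 10 reads the same numbers of regions and loci passed, 4 and 6. Within 10 kb 4 regions and 4 loci passed in the inducible series. Leaving out Cdc25a gave summed ratios of 0.807 and 0.655. Added after seeing the data, and run for the summed ratios alone, leaving out the 2 tied regions gave 0.815 and 0.660. Leaving out the 5 most open regions gave 0.851 (0.722 to 1.01) and 0.625. The first interval then includes 1 and still lies above 0.668, the mz ratio of all regions, a difference that was not tested. No paired analysis was possible because the table holds 1 merged column per group, so no embryo could be left out. Depth limits the mz series most, with a median of 8 reads per region over both columns, against 23 in the inducible series.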
